A study of Homo sapiens with 46 samples.

Results

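Antisense long noncoding RNA (lncRNA) genes carry the symbol of the gene they lie opposite, followed by -AS and a number. The genes described here were all those with such a symbol in the deposited tables of 4 cell types, with 1 symbol left out by the rule that chose them. They numbered 606 of the 21183 Ensembl genes in these tables, and the values of a gene's assembled transcripts were summed. Each was read beside its sense gene, the gene whose symbol stands before -AS. Antisense RNA is transcribed from the DNA strand opposite another gene. Some antisense genes start beside the promoter of the sense gene and run away from it, some lie inside it, and some meet its tail. Described examples act at their own locus on chromatin, pair with a messenger RNA (mRNA), or bind microRNAs in the cytoplasm, and most have no described role.

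The study sequenced RNA of H1, a long-used line of human pluripotent stem cells (hPSC), and of 3 cell types made from H1 in culture and collected after 5 days, which all descend from this 1 line. Each culture was separated into cytoplasm, released by a mild detergent over sucrose, and nucleus. A part of the nuclei was split further, into soluble nucleoplasm and pelleted chromatin, and the lysis buffers held α-amanitin, an inhibitor of RNA polymerase II. The 46 libraries formed 16 groups, of which 15 had 3 libraries and mesoderm nucleoplasm had 1. The hPSC were kept in mTeSR1 on Matrigel. Endoderm received WNT3A and Activin A, mesoderm received VEGF, BMP4 and bFGF with Activin A at first only, and ectoderm received the inhibitors A83-01, PNU-74654 and Dorsomorphin.

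Library totals ran from 4990408 to 21298678 counts. Some fraction labels and cell type labels were not borne out by control genes. In ectoderm, 5 of 6 nuclear RNAs were higher in the libraries labelled cytoplasm (MALAT1 by 3.09 on the log2 scale) and 0 of 6 cytoplasmic mRNAs were. In hPSC, 2 of 5 nuclear RNAs were higher and 2 lower in the cytoplasm, and all 6 cytoplasmic mRNAs were higher there. In endoderm the numbers were 1 higher and 2 lower of 5 nuclear RNAs, and 4 of 6 cytoplasmic mRNAs higher. In mesoderm 4 of 5 nuclear RNAs were lower and 6 of 6 cytoplasmic mRNAs higher in the cytoplasm, but mitochondrial RNAs, which were lower there in the other cell types, were 3 of 3 higher. Beside these, the endoderm nucleus replicate 1, ectoderm nucleus replicate 2 and mesoderm chromatin replicate 3 libraries stood apart from their groups. Of 7 ectoderm markers the ectoderm table held 5 (not SOX1 and HES5), which summed to 716 to 755 CPM (counts scaled to the library total) in cytoplasm, against 58.1 to 68.3 CPM for the 1 present in hPSC. ZIC1, among the 5, was at only 0.18 to 0.49 CPM there. All 7 endoderm markers were in the endoderm table, at 308 to 439 CPM, where hPSC markers still summed to 4935 to 5865 CPM and mesoderm markers to 252 to 314. The mesoderm table held 4 of 8 mesoderm markers (not MIXL1, MESP1, KDR and GATA4), at 136 to 145 CPM. HAND1 alone gave 129 to 140 CPM of that sum, and TBXT was at 0.118 to 0.152 CPM. The hPSC markers summed to 2657 to 2779 CPM in mesoderm cytoplasm and 2246 to 2540 in that of ectoderm, against 7334 to 8976 in hPSC. LIN28A alone gave 1676 to 1905 CPM of the ectoderm sum. POU5F1, among these markers, reached at most 7.67 CPM in ectoderm cytoplasm, against 2817 to 3613 CPM in that of hPSC. It was at 820 to 954 CPM in mesoderm cytoplasm. In mesoderm cytoplasm 6 amnion or trophoblast markers summed to 742 to 794 CPM, of which GABRP alone gave 373 to 395, while KRT7 was at 25.4 to 32.0 CPM there and at 26.1 to 31.5 CPM in hPSC. The part of these differences in the results below was not tested.

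The 4 tables rest on separate transcript assemblies, and 100 of the 606 antisense genes were in all of them. There were 411 in ectoderm, 289 in hPSC and as many in mesoderm, and 235 in endoderm, and 279 were in 1 table only, 133 of them in that of ectoderm. In the GENCODE 29 annotation of GRCh38, 604 were found by identifier, and 474 of these were typed antisense. Most, 431, shared at least 1 exon base with a gene on the other strand, and 39 shared more than 50% of theirs. By position, 263 overlapped the sense gene at the starts, 150 were nested in it, 100 overlapped it at the ends and 40 contained it. Another 37 lay apart from it with starts facing, at any distance. Strand-specific counting is not stated, so reads of an antisense gene and of an overlapping exon on the other strand cannot be told apart. Counts for the 173 without such a shared base are therefore given beside those of the whole set in each comparison. This leaves out shared exons only. A gene of this set can still lie in an intron of its sense gene, as CLN8-AS1 does. Reads of unspliced sense RNA there cannot be told apart either.

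By the authors' TPM, a share of the library corrected for transcript length, a single gene dominated in hPSC. FOXD3-AS1 averaged 440 TPM over the 4 hPSC fractions, and the next, SNTG2-AS1, averaged 41.5. The highest in ectoderm were GABPB1-AS1 at 123 and FEZF1-AS1 at 102, and in endoderm SLC9A3-AS1 at 108 and GATA6-AS1 at 57.9. In mesoderm SLC9A3-AS1 averaged 63.1 and LMNTD2-AS1 58.5. CCDC144NL-AS1 was among the 5 highest in all 4 cell types, from 30.0 TPM in endoderm to 67.6 TPM in ectoderm. FOXD3-AS1 (ENSG00000230798, chromosome 1, 63320884 to 63324441, minus strand) lies head to head with FOXD3, a transcription factor gene of pluripotent and neural crest cells. By these coordinates FOXD3-AS1 runs across the RefSeq start of FOXD3 at 63322567. FOXD3-AS1 reads on any overlapping exon cannot be told apart from those of FOXD3. Its level was 254, 159 and 132 CPM in hPSC cytoplasm and 56.3, 46.2 and 46.7 in the nucleus, so that every cytoplasm library lay above every nucleus library (log2 change 1.78, SE 0.23, edgeR adjusted p 1.5e-05). FOXD3 itself was at 32.5, 33.8 and 31.1 and 35, 35.4 and 38.4 CPM, a log2 difference of -0.28 that did not pass the test (edgeR adjusted p 0.069). By CPM, which is not corrected for length, GABPB1-AS1 and OIP5-AS1 lay above FOXD3-AS1 in the hPSC nucleus, as given below. In ectoderm FOXD3-AS1 was at 0 in 11 of 12 libraries, and it was not in the endoderm and mesoderm tables.

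Chromatin held the largest share of antisense counts in every cell type. The 3 hPSC chromatin libraries had 0.276%, 0.283% and 0.306% of their counts on antisense genes, above the highest nucleoplasm library at 0.209%. Ectoderm chromatin had 0.576%, 0.575% and 0.569% against at most 0.383% in nucleoplasm. Endoderm chromatin had 0.288%, 0.278% and 0.310% against at most 0.127%. Mesoderm chromatin had 0.369%, 0.405% and 0.266% against 0.140% in the 1 nucleoplasm library, and the lowest of these was the library that stood apart. The fractions of a cell type did not overlap between chromatin and nucleoplasm. In bulk samples, fewer cells of a type and less RNA per cell cannot be told apart.

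**Figure D1:**
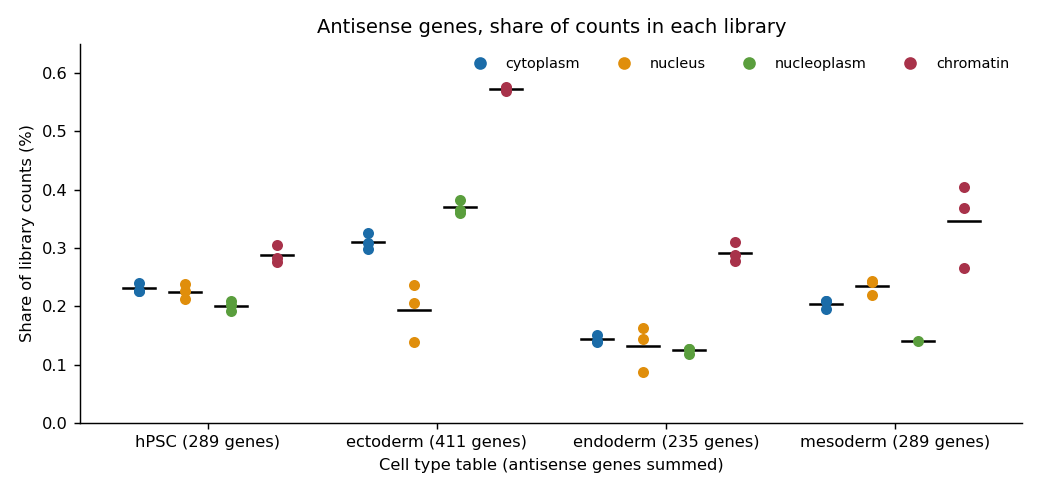
Percent of each library's counts on antisense genes, by cell type and fraction; each point is 1 library and each bar the mean of its group. The chromatin libraries lie highest in each cell type, and mesoderm nucleoplasm has 1 library.

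Gene by gene, the chromatin comparison asked which RNAs stay with the pelleted chromatin. A gene is said to be called where edgeR's quasi-likelihood test gave an adjusted p under 0.05 after Benjamini-Hochberg adjustment over all genes tested. In hPSC, 43 of 223 antisense genes tested were higher on chromatin and 4 lower, where 17.1% and 13.5% of all 13997 genes tested were. In ectoderm 69 of 299 were higher and 17 lower, beside 21.5% and 21.7% of all genes. In endoderm 48 of 174 were higher and 6 lower, beside 22.9% and 30.7%. The median log2 change of antisense genes was 0.30, 0.27 and 0.29, against -0.01, -0.02 and -0.12 over all genes. Leaving out 1 library at a time gave 30 to 44 called genes in hPSC and 53 to 72 in ectoderm, with the fewest without nucleoplasm replicate 3 in hPSC (30; 31 without nucleoplasm replicate 1) and without chromatin replicate 3 in ectoderm (53; 54 without chromatin replicate 1). With the authors' TPM the counts were 133 and 134. The share called higher was close to that of all genes in hPSC and ectoderm, and the share called lower was smaller in all 3 cell types.

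The size of these shifts depended on scaling. With library totals in place of TMM factors (edgeR's trimmed-mean scaling), the median of all genes rose by 0.16, 0.19 and 0.62, and the calls became 59 higher and 3 lower in hPSC, 88 and 6 in ectoderm, and 78 and 0 in endoderm. Among genes without an exon base on the other strand, in hPSC 5 of 47 were higher and 2 lower, ectoderm had 11 of 73 and 3, and endoderm 2 of 34 and 2, with a median of -0.20. Control genes differed between these fractions too. Of nuclear RNAs, in hPSC 0 of 5 were higher and 2 lower on chromatin, in ectoderm 2 higher and 1 lower of 6, and in endoderm 1 higher and 1 lower of 5. Cytoplasmic mRNAs were lower on chromatin in 0 of 6, 5 of 6 and 6 of 6. The mitochondrial share of counts was 4.58% to 5.87% on chromatin and 11.3% to 12.2% in nucleoplasm for hPSC, 2.04% to 2.72% and 8.43% to 10.2% for ectoderm, and 1.38% to 1.62% and 10.5% to 12.2% for endoderm, and the part of these values in the comparison was not tested. Without the third hPSC chromatin library, 30 antisense genes were higher and 7 lower. In mesoderm, with 1 nucleoplasm library and no test, all 3 chromatin libraries lay above it for 165 of 247 antisense genes (66.8%) and below it for 19 (7.69%), against 47.3% and 24.9% of all genes.

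**Figure D2:**
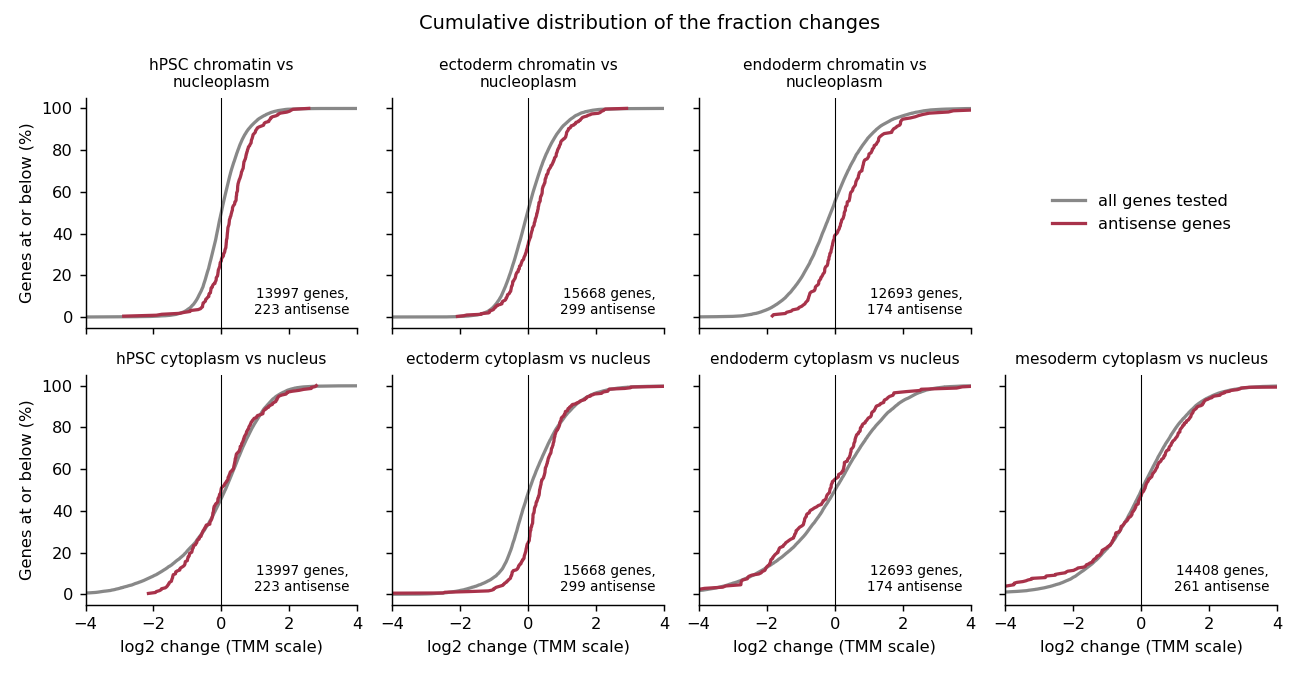
Cumulative percent of genes by log2 change on the TMM scale, for chromatin against nucleoplasm (top) and cytoplasm against nucleus (bottom); red lines are antisense genes and grey lines all genes tested. In the 3 chromatin panels the red line lies to the right of the grey one over most of its length.

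SLC9A3-AS1 and LMNTD2-AS1 showed the pattern in every cell type tested. SLC9A3-AS1 (ENSG00000225138, chromosome 5, 473236 to 480884, plus strand) is nested in SLC9A3, a sodium/hydrogen exchanger gene. In endoderm its level was 18.9, 17.4 and 20.4 CPM in cytoplasm, 130.4, 264 and 183 in nucleus, 83.3, 82.7 and 80.7 in nucleoplasm and 473, 446 and 562 on chromatin. No fraction overlapped another, with chromatin highest (log2 change 1.96, SE 0.16, edgeR adjusted p 1.1e-07 against nucleoplasm) and cytoplasm lowest (-4.04 against nucleus). Its chromatin change was 2.01 in hPSC and 1.26 in ectoderm, both called. SLC9A3 was at 0.76 on endoderm chromatin. LMNTD2-AS1 (ENSG00000254815, chromosome 11, 557595 to 560107, plus strand) is nested in LMNTD2, a gene of the lamin tail domain family, with 45.4% of its exon bases on exons of the other strand. On endoderm chromatin it reached 101, 88.1 and 126 CPM against 6.2, 5.95 and 6.02 in nucleoplasm and 1.17, 1.32 and 1.41 in cytoplasm (log2 change 3.49, SE 0.21, edgeR adjusted p 1.5e-08, chromatin against nucleoplasm). In hPSC the chromatin libraries had 26.5, 22.8 and 50.1 CPM and the nucleoplasm libraries 5.18, 5.34 and 4.4 (log2 change 2.57, SE 0.32, edgeR adjusted p 0.00024).

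Across cell types, 6 of the 101 antisense genes tested in the 3 cell types were higher on chromatin in each (5.94%, beside 10.2% of all genes), and 0 were lower in each (beside 10.0%). The others were A1BG-AS1, TPT1-AS1, UGDH-AS1 and VPS9D1-AS1, named because they complete this count. UGDH-AS1 lies head to head with UGDH, the gene of UDP-glucose dehydrogenase, and the pair moved in opposite directions. UGDH-AS1 chromatin levels were 19.9, 23.2 and 34.1 CPM in hPSC, 58.5, 68.2 and 63.8 in ectoderm and 33.1, 29.9 and 43.6 in endoderm, against 12.4, 13.6 and 13.5, 24, 20.1 and 25.8 and 13.5, 14.8 and 13.9 in nucleoplasm. The UGDH-AS1 changes were 0.80, 1.25 and 0.72, and those of UGDH were -0.85, -0.80 and -1.21, all 6 called. RHOXF1-AS1 was the 1 antisense gene of the 101 higher on chromatin in 1 cell type (endoderm, 4.40) and lower in another (hPSC, -0.92). How many of all genes did so was not computed. The hPSC call of RHOXF1-AS1 was lost without nucleoplasm replicate 1 (edgeR adjusted p 0.098) or chromatin replicate 1 (edgeR adjusted p 0.058).

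Other genes stood out in 1 cell type. In hPSC, WAC-AS1 had 75.9, 60.3 and 63.8 CPM on chromatin and 15.9, 15.1 and 10.7 in nucleoplasm (log2 change 2.11, SE 0.20, edgeR adjusted p 6.2e-05), while WAC, a gene of the histone ubiquitination machinery, differed by -0.15 without passing the test. In ectoderm the WAC-AS1 difference was 0.00, also not called. SNTG2-AS1 had 30.2, 30.9 and 46.7 CPM on hPSC chromatin and 8.72, 10.4 and 6.2 in nucleoplasm (log2 change 1.92), and it shares no exon base with a gene on the other strand. SRP54-AS1 had 19.3, 20 and 21.1 CPM on ectoderm chromatin and 5.61, 4.39 and 4.48 in nucleoplasm (1.87), where SRP54, the gene of a signal recognition particle subunit, changed by -0.46. PTOV1-AS2 had 77.5, 53.7 and 86.1 CPM on endoderm chromatin and 8.6, 5.45 and 6.41 in nucleoplasm (2.78; PTOV1 1.20). OTUD6B-AS1 went the other way in ectoderm (-1.80), as did RTCA-AS1 (-2.08). LARGE-AS1 was lower on hPSC chromatin, at 0.449, 1.69 and 0.869 CPM against 8.12, 6.86 and 4.7 in nucleoplasm (log2 change -2.88, SE 0.47, edgeR adjusted p 0.00086).

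Between cytoplasm and nucleus, 51 of 223 antisense genes were higher in the cytoplasm and 47 lower in hPSC, where 35.6% and 30.0% of all genes were. In mesoderm 69 of 261 were higher and 65 lower, beside 32.1% and 31.2% of all genes. In endoderm 29 of 174 were higher and 58 lower, beside 34.3% and 35.5%, and with library totals the split turned to 68 higher and 36 lower, as the median of all genes rose by 0.72. In ectoderm 77 of 299 were higher in the libraries labelled cytoplasm and 11 lower, beside 28.7% and 24.8%. Ectoderm nuclear RNAs were also higher in those libraries, MALAT1 by 3.09, and the part of this in the result was not tested. Without the nucleus library that stood apart, ectoderm had 63 higher and 10 lower, and endoderm 22 higher and 62 lower. The antisense medians of hPSC, ectoderm, endoderm and mesoderm were -0.01, 0.34, -0.14 and 0.09, against 0.11, 0.03, 0.01 and 0.00 over all genes. Among genes without an exon base on the other strand, 13 of 47 were higher and 5 lower for hPSC, 21 of 73 and 1 for ectoderm, 8 of 34 and 4 for endoderm, and 13 of 64 and 22 for mesoderm. Their medians were 0.39, 0.50, 0.40 and -0.28. Those of hPSC, endoderm and mesoderm had the other sign than in the whole set, where that of hPSC was only -0.01.

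Of 84 antisense genes tested in all 4 cell types, 3 were higher in the cytoplasm in each (3.57%, beside 10.4% of all genes) and 0 were lower in each (beside 13.2%). These 3 were MAPKAPK5-AS1, OTUD6B-AS1 and ZNF667-AS1. OTUD6B-AS1, whose sense gene encodes a deubiquitinase, changed by 1.63, 2.34, 3.75 and 2.46 in hPSC, ectoderm, endoderm and mesoderm. In endoderm it was at 19.7, 22 and 13.7 CPM in cytoplasm and 0.404, 1.21 and 0.949 in nucleus, and OTUD6B changed by 2.44 there. Both subfractions of the endoderm nuclei had more OTUD6B-AS1 than the nucleus libraries, at 7.69, 5.73 and 6.17 CPM in nucleoplasm and 9.96, 6.75 and 4.62 on chromatin. In hPSC its chromatin libraries, at 28.8, 23.4 and 4.9 CPM, lay on both sides of those of cytoplasm, at 19.4, 14.4 and 15. MAPKAPK5-AS1, described as an RNA that binds microRNAs, had 40.1, 34.8 and 31 CPM in hPSC cytoplasm and 16.6, 17 and 14.1 in nucleus (log2 change 1.04, SE 0.16, edgeR adjusted p 6.3e-05). Its changes in the other cell types were 0.34, 1.16 and 1.43, and it was lower on chromatin in ectoderm (-0.73) and endoderm (-0.74), where MAPKAPK5, a kinase gene, was higher (0.45 and 0.77). Of the 84, 13 were higher in the cytoplasm in 1 cell type and lower in another, among them TPT1-AS1, WARS2-AS1 and CCDC18-AS1. The share of all genes that did so was not computed, so this count cannot be called particular to antisense genes. The counts over 4 cell types take in ectoderm, where the labels are in doubt. TPT1-AS1 was higher in ectoderm only, and CCDC18-AS1 was higher in ectoderm (1.05) and lower in hPSC (-1.45).

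**Figure D3:**
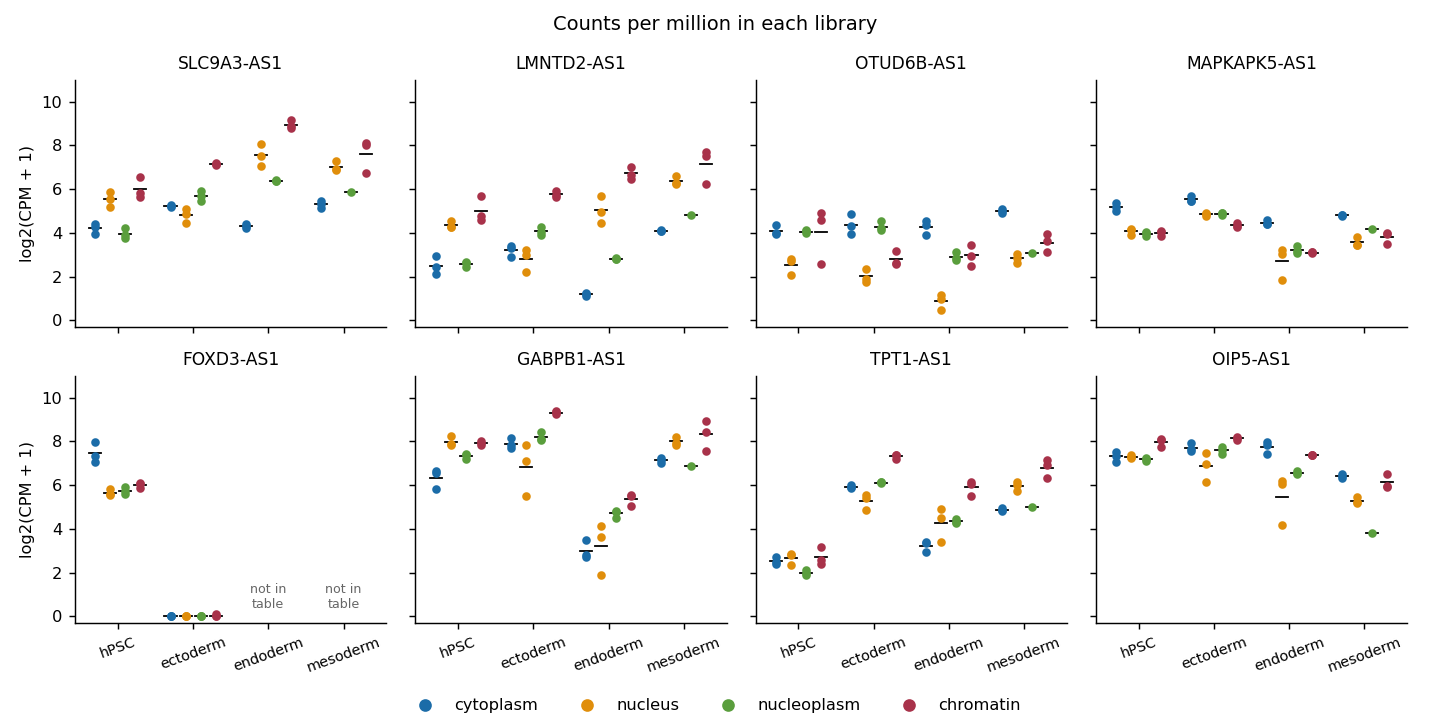
Level of 8 antisense genes as log2(CPM + 1) in each library, by cell type and fraction; points are libraries and bars group means. The group means of SLC9A3-AS1 and LMNTD2-AS1 are highest on chromatin in all 4 cell types, and those of MAPKAPK5-AS1 in the cytoplasm, as are those of OTUD6B-AS1 outside hPSC.

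Cytoplasmic genes of single cell types were named by the same rule. ENTPD3-AS1 had 7.03, 3.47 and 4.25 CPM in hPSC cytoplasm and 0.949, 0.615 and 1.16 in nucleus (log2 change 2.28, SE 0.42, edgeR adjusted p 0.00029), and it fell from hPSC in the cytoplasm of all 3 lineages (-2.11, -2.32 and -3.19). GUCY2C-AS1, beside the gene of an intestinal guanylate cyclase receptor, had 30, 119 and 118 CPM in endoderm cytoplasm and 12.2, 10.9 and 14.2 in nucleus (2.09). In mesoderm KRT10-AS1 had 14.7, 13.8 and 15.2 CPM in cytoplasm and 2.19, 3.8 and 3.4 in nucleus (2.37), beside 2.95 for the keratin gene KRT10. PITPNA-AS1 did likewise, at 6.79, 8.94 and 8.04 against 1.72, 2.67 and 0.927 CPM (2.31), with PITPNA, a lipid transfer protein gene, at 0.66.

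In ectoderm, VASH1-AS1 had 29.5, 26.9 and 25.5 CPM in the libraries labelled cytoplasm and 68, 68.2 and 77.2 in those labelled nucleus (-1.74), with VASH1, the gene of vasohibin, at -0.55. It was among the 11 lower there while nuclear control RNAs were higher. TSPEAR-AS2 had 1.0, 2.01 and 2.76 CPM in endoderm cytoplasm and 7.01, 8.14 and 8.34 in nucleus (-2.76), and 30, 41.1 and 25.9 on chromatin against 3.81, 2.29 and 4.3 in nucleoplasm (2.60).

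Antisense genes lower in hPSC cytoplasm than in its nucleus included GABPB1-AS1 and HPN-AS1. GABPB1-AS1 (ENSG00000244879, chromosome 15, 50354959 to 50372202, plus strand) starts near GABPB1, the gene of a subunit of the GABP transcription factor. In hPSC it was at 55.5, 92.5 and 98.4 CPM in cytoplasm and 235, 303 and 229.9 in nucleus, every nucleus library above every cytoplasm library (log2 change -1.77, SE 0.17, edgeR adjusted p 8.8e-07). GABPB1 rose in the cytoplasm by 1.15. GABPB1-AS1 and GABPB1 also differed in direction in endoderm (-1.10 and 1.57) and in mesoderm (-0.76 and 0.69). In ectoderm, where the labels are in doubt, GABPB1-AS1 was at 0.55, not called (edgeR adjusted p 0.17), beside 0.58 for GABPB1. HPN-AS1 was lower in the cytoplasm with its sense gene, -1.94 beside -0.86 for HPN, the gene of the protease hepsin, with 37.8% of its exon bases on exons of the other strand. In mesoderm the largest fall in the cytoplasm among named genes was that of LARGE-AS1, with 11 counts over the 3 cytoplasm libraries and 225 over the 3 nucleus libraries, a ratio of pooled CPM of 0.0320 (exact 95% interval 0.0158 to 0.0584, counting error only).

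Antisense and sense genes of a pair were compared in the same libraries. On chromatin the antisense change lay above that of the sense gene in 127 of 187 hPSC pairs, 170 of 266 ectoderm pairs and 77 of 127 endoderm pairs. The medians were 0.30, 0.23 and 0.32 for the antisense and -0.02, -0.05 and 0.06 for the sense genes. With the authors' TPM the ectoderm count was 108 of 192 pairs. Among pairs whose antisense gene shares no exon base with the other strand the counts were 25 of 39, 43 of 65 and 13 of 25. Between cytoplasm and nucleus the antisense change lay above in 92 of 187 hPSC pairs, 158 of 266 ectoderm pairs, 51 of 127 endoderm pairs and 113 of 219 mesoderm pairs, and with the authors' TPM in 103 of 192 ectoderm pairs. Without a shared exon base the counts were 27 of 39, 41 of 65, 15 of 25 and 23 of 57. Across pairs, Pearson's r between both changes was -0.01, 0.16, 0.26 and 0.07 for cytoplasm against nucleus and 0.20, 0.22 and 0.14 for chromatin against nucleoplasm. Pairs share libraries and in part reads, so these r values are descriptions.

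**Figure D4:**
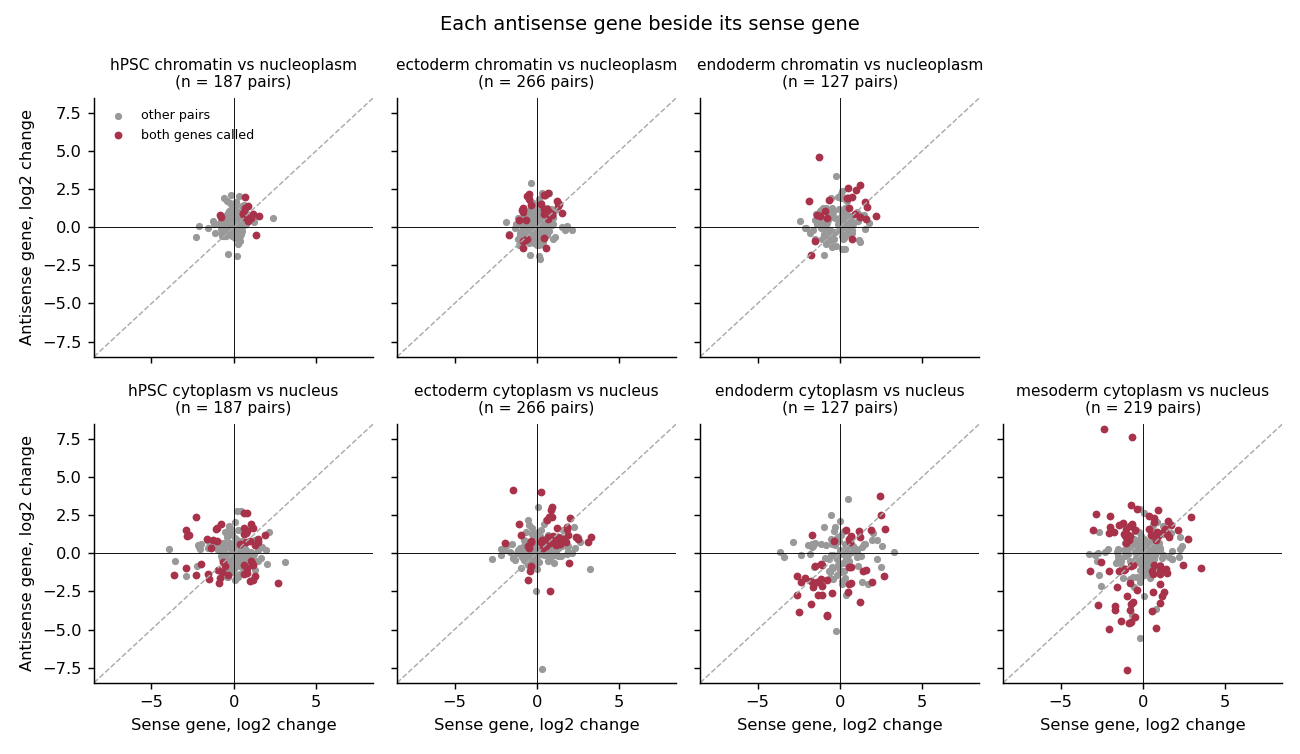
Log2 change of each sense gene (x axis) and its antisense gene (y axis) in the same comparison; each point is 1 pair, red where both genes were called, and the dashed line marks equal change. Red points fall in all 4 quadrants in the hPSC and mesoderm cytoplasm panels.

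Where both genes of a pair were called, some pairs moved the same way and others in opposite ways. In hPSC cytoplasm against nucleus, 28 pairs moved the same way and 23 in opposite ways, and in mesoderm 44 and 41. In ectoderm the counts were 39 and 10, and in endoderm 31 and 12. Of all genes, 35.6% were called higher and 30.0% lower in hPSC, and 32.1% and 31.2% in mesoderm. Called genes paired at random would often differ too. Without a shared exon base the counts were 2 and 6 for hPSC and 6 and 4 for ectoderm. For endoderm they were 4 and 0, and for mesoderm 14 and 12. Pairs that meet at their ends mostly moved together, 10 hPSC pairs the same way and 2 opposite, 13 and 1 for ectoderm, 10 and 1 for endoderm, and 7 and 4 for mesoderm. Pairs with overlapping or facing starts did so less clearly, with 12 and 16 for hPSC, 19 and 6 for ectoderm, 11 and 8 for endoderm and 23 and 25 for mesoderm. The difference between these positions was not tested.

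An opposed pair was TPT1-AS1 with TPT1, the gene of the abundant protein TCTP. TPT1-AS1 (ENSG00000170919, chromosome 13, 45341345 to 45393413, plus strand) changed by -0.29, 0.31, -1.89 and -0.98 between cytoplasm and nucleus in hPSC, ectoderm, endoderm and mesoderm, of which the first did not pass the test. The log2 differences of TPT1 were 1.64, 0.01, 1.97 and 3.52, of which the second did not. On chromatin against nucleoplasm TPT1-AS1 rose in hPSC, ectoderm and endoderm, by 0.79, 1.03 and 1.01. This pair was singled out after its values were seen.

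Start regions were read from the RefSeq windows of GRCh38.p14, which run from 250 bases before to 50 after a gene's start and were found for 465 antisense genes. Their median GC content was 62.7% against 58.3% over all 27305 windows, with a median of 21 CpG dinucleotides against 14. The GC box (GGGCGG, both strands) was in 56.1% of the antisense windows and in 44.6% of all, TATAAA (both strands) in 5.59% and 12.0%, and CCAAT (both strands) in 32.9% and 35.7%. Of 404 pairs with both windows, 75 had windows that share bases. In hPSC cytoplasm against nucleus, 31 of these were tested and both genes were called in 9, of which 6 moved in opposite ways, and in mesoderm 41 were tested and both were called in 15, of which 11 did. In ectoderm, 2 of 9 such pairs moved in opposite ways, and in endoderm 3 of 5. Among pairs whose windows share no base the opposite pairs were 11 of 29 for hPSC, 4 of 28 for ectoderm, 6 of 24 for endoderm and 17 of 49 for mesoderm, and the difference was not tested. In mesoderm against hPSC cytoplasm, all 6 pairs with shared window bases and both genes called moved the same way. In ectoderm cytoplasm 5 such pairs moved the same way and 4 in opposite ways, and in endoderm cytoplasm 3 and 1. On chromatin against hPSC the counts were 1 and 3 in ectoderm, 0 and 3 in endoderm, and 2 and 1 in mesoderm. The windows of 4 genes described here are shown because they span this range, 5′ to 3′ on the strand of the antisense gene, whose RefSeq start lies right after the first 250 bases. Capitals mark bases that also lie in the window of the sense gene.
TPT1-AS1, chr13:45341095-45341394, plus strand: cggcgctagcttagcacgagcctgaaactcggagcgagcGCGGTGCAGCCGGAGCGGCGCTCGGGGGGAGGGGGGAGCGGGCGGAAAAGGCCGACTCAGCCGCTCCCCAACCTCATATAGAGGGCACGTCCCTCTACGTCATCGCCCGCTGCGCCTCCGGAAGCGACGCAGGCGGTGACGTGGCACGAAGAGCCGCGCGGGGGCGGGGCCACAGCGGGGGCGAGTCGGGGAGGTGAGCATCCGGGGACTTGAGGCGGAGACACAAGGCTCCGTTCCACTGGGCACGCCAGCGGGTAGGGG
FOXD3-AS1, chr1:63322409-63322708, minus strand: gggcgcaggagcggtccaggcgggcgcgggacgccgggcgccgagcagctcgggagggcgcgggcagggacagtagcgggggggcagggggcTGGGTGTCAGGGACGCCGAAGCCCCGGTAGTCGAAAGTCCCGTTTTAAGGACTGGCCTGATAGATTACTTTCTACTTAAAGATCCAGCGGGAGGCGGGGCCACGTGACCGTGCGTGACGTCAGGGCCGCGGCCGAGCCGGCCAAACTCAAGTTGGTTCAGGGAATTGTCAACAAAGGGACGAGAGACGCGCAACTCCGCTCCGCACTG
WAC-AS1, chr10:28532305-28532604, minus strand: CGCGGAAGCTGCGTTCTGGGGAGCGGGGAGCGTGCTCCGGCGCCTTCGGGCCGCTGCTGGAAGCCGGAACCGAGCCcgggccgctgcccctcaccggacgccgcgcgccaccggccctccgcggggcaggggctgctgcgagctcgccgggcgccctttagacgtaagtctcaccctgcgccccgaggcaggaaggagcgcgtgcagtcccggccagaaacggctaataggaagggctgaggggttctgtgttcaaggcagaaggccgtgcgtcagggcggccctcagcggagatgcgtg
GABPB1-AS1, chr15:50353924-50354223, plus strand: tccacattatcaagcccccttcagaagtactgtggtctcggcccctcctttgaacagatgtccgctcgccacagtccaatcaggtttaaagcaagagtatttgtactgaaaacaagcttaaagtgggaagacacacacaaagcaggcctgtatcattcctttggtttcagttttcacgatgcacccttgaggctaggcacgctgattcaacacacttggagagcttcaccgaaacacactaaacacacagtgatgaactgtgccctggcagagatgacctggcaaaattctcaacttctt
In TPT1-AS1 and FOXD3-AS1 most of the window is in capitals, 261 and 208 of 300 bases, and the RefSeq starts of both genes of a pair lie 162 and 109 bases apart. WAC-AS1 shares 76 bases at the far end from its start, with starts 425 bases apart. The GABPB1-AS1 window shares 0 bases, with starts 1024 bases apart, and has 6 CpG and 47.0% GC where the other 3 have 33 to 38 CpG. GENCODE 29 places the start of TPT1-AS1 at the same base but those of WAC-AS1, FOXD3-AS1 and GABPB1-AS1 389, 1983 and 785 bases from the RefSeq ones. By GENCODE the starts of the pairs lie 25 bases apart for TPT1-AS1, 250 for WAC-AS1, 1400 for FOXD3-AS1 and 449 for GABPB1-AS1. The windows of the last 3 thus depend on the annotation used, and so do the shared bases of all 4 pairs.

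Antisense RNAs with a described role were read from a list of 13, of which 10 were in the tables. Between cytoplasm and nucleus 3 of 9 tested were higher and 2 lower in hPSC, 4 of 8 and 0 in ectoderm, 4 of 7 and 1 in endoderm, and 4 of 7 and 0 in mesoderm. Of all genes, 35.6% and 30.0%, 28.7% and 24.8%, 34.3% and 35.5%, and 32.1% and 31.2% were called in these directions. The medians of the list were 0.09, 0.29, 0.70 and 1.07, against 0.11, 0.03, 0.01 and 0.00 over all genes. OIP5-AS1 (ENSG00000247556, chromosome 15, 41283990 to 41309737, plus strand), also known as Cyrano, is described as an RNA that leads to the decay of the microRNA miR-7. Its site for that microRNA is shown beside miR-7-5p because the pairing runs past the seed, which is in capitals in the microRNA with its match in the site.
hsa-miR-7-5p: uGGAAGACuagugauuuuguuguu
OIP5-AS1 site: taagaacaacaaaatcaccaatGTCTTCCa
The site is bases 2865 to 2894 of an OIP5-AS1 transcript of 8829 bases in GENCODE 29, and 15 of 16 bases upstream of the seed match also pair, past an unpaired gap. OIP5-AS1 was at 133, 183 and 163 CPM in hPSC cytoplasm and 157, 164 and 153 in nucleus, groups that overlap (log2 change -0.11, SE 0.12, edgeR adjusted p 0.44). In endoderm it was at 254, 230.0 and 169 CPM in cytoplasm, against 17.2, 72.2 and 65.7 in nucleus (log2 change 1.45, SE 0.28, edgeR adjusted p 0.0003), with every cytoplasm library above every nucleus library. In mesoderm it was at 84.7, 90.1 and 78.6 CPM in cytoplasm, against 36.4, 35.3 and 43.4 in nucleus (log2 change 1.26, SE 0.19, edgeR adjusted p 0.00014). Mesoderm chromatin had less OIP5-AS1 than hPSC chromatin, 61.2, 59.2 and 90.5 CPM against 264, 272 and 212 (log2 change -1.80, SE 0.18, edgeR adjusted p 2.2e-06), while OIP5, a centromere protein gene, changed by -1.22. OIP5 fell on ectoderm and endoderm chromatin as well (-1.35 and -1.55), where OIP5-AS1 was at 0.15, not called, and -0.46.

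The rest of this list varied. ZEB1-AS1, beside the gene of an epithelial-mesenchymal transition factor, was higher in the cytoplasm in endoderm (1.74) and mesoderm (1.16) and had a change of 0.19 in hPSC that did not pass the test. The ZEB1-AS1 level was 14.1, 15.8 and 14.3 CPM on ectoderm chromatin and 3.2, 2.06 and 2.53 on hPSC chromatin (log2 change 2.47, SE 0.33, edgeR adjusted p 2e-05). FGD5-AS1 was higher in the cytoplasm in hPSC, endoderm and mesoderm, by 0.32, 0.70 and 1.07, with an ectoderm difference of 0.14 that was not called. PSMA3-AS1 was lower in hPSC cytoplasm (-1.92) where PSMA3, a proteasome subunit gene, was higher (2.68), but the antisense gene had only 0.949, 1.62 and 0.707 CPM in the hPSC nucleus. In ectoderm, where the labels are in doubt, PSMA3-AS1 rose by 1.21. MCM3AP-AS1 was lower in hPSC cytoplasm (-1.59) and was higher on chromatin in hPSC (0.88) and ectoderm (0.87). TP73-AS1 was lower in endoderm cytoplasm (-0.97), though the libraries overlapped.

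Antisense genes of developmental transcription factors were read from a list of 56, of which 21 were in the tables. Few were tested in any one cell type, with 1 of 4 higher in the cytoplasm and 1 lower in hPSC, 3 of 6 and 0 in ectoderm, 1 of 2 and 1 in endoderm, and 3 of 8 and 3 in mesoderm. The shares of all genes called were again 35.6% and 30.0%, 28.7% and 24.8%, 34.3% and 35.5%, and 32.1% and 31.2%. The medians of this list were -0.37, 0.52, -0.41 and -0.61. GATA6-AS1 (ENSG00000266010, chromosome 18, 22164886 to 22169878, minus strand) lies head to head with GATA6, an endoderm transcription factor gene, and was in the endoderm table only. Its endoderm levels were 12.5, 10.2 and 9.67 CPM in cytoplasm, 14.4, 65.8 and 44.5 in nucleus, 22.2, 19.5 and 18.1 in nucleoplasm and 121, 103 and 128 on chromatin. The chromatin libraries lay above all others (log2 change 1.94, SE 0.29, edgeR adjusted p 4.7e-05 against nucleoplasm), and the cytoplasm libraries lay below the nucleus libraries (-2.56), of which the 1 that stood apart was lowest. GATA6 had 128, 100.3 and 88.5 CPM in cytoplasm and 35.6, 48.7 and 52.3 in nucleus and was higher in cytoplasm (0.50), while its chromatin difference of 0.06 was not called.

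FEZF1-AS1 (ENSG00000230316, chromosome 7, 122303658 to 122310077, plus strand) is nested in the locus of FEZF1, a forebrain transcription factor gene, and was in the hPSC and ectoderm tables. It had 374, 444 and 393 CPM on ectoderm chromatin and 214, 229 and 234 in nucleoplasm (log2 change 0.65, SE 0.11, edgeR adjusted p 0.00031), whereas FEZF1 differed by -0.03 and was not called. On hPSC chromatin FEZF1-AS1 was at 5.83, 6.76 and 8.38 CPM. SOX21-AS1 had 27.3, 25.4 and 23.3 CPM in the ectoderm libraries labelled cytoplasm and 13.6, 10.7 and 13.1 in those labelled nucleus (0.68), where SOX21 differed by -0.29 and was not called. SIX3-AS1 and LHX5-AS1 differed by 0.35 and 0.33 there, without passing the test. Nuclear control RNAs were also higher in those libraries, and their part in these values was not tested. In mesoderm MEIS1-AS3 was higher in the cytoplasm, at 6.33, 6.69 and 5.31 CPM against 1.56, 3.66 and 1.44 (1.63), and so was ZNF503-AS2 (1.22). HOXB-AS1 (-1.41) and NR2F2-AS1 (-1.16) were lower, and NR2F2, the gene of a nuclear receptor of mesenchyme and vein, changed by 0.54. GATA2-AS1 and GATA3-AS1 differed by -0.40 and -0.82 without passing the test. GATA3-AS1 on mesoderm chromatin was at 37.8, 20.6 and 4.52 CPM, so the library that stood apart was the lowest.

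Differentiated cells were then compared with hPSC over genes in all 4 tables, within cytoplasm and within chromatin. The 3 comparisons share the hPSC libraries, and each table has its own assembly, so the number of assembled transcripts of a gene differs between them. In cytoplasm, 49 of 99 antisense genes were higher and 34 lower in ectoderm, beside 38.0% and 37.9% of all genes. In endoderm cytoplasm 16 were higher and 38 lower, beside 29.6% and 28.6%, and in mesoderm cytoplasm 48 and 20, beside 34.6% and 33.4%. On chromatin, 48 of 97 were higher and 22 lower in ectoderm, beside 30.5% and 32.4% of all genes. On endoderm chromatin 26 were higher and 27 lower, beside 28.9% and 33.0%, and on mesoderm chromatin 34 and 15, beside 27.1% and 27.4%. Amnion or trophoblast markers summed to 742 to 794 CPM in mesoderm cytoplasm and 30.7 to 35.1 CPM in that of hPSC, and their part in these counts was not tested. Among the 17 genes without an exon base on the other strand, 6 were higher and 8 lower in ectoderm cytoplasm, 2 and 6 in endoderm and 10 and 4 in mesoderm. On chromatin these counts were 6 and 6, 2 and 8, and 5 and 4. Without the mesoderm chromatin library that stood apart, 36 were higher and 16 lower.

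ZNF436-AS1 (ENSG00000249087, chromosome 1, 23368997 to 23371839, plus strand), beside a zinc finger gene, was nearly absent in hPSC. Its chromatin levels were 0.0641, 0.147 and 0.0790 CPM in hPSC, far below the 31.3, 36 and 29.8 CPM of ectoderm. Endoderm chromatin had 15.3, 16.7 and 17.4 CPM and mesoderm chromatin 13.1, 11.5 and 3.19, again without overlap with hPSC. The hPSC chromatin libraries held 4 counts in all, so the ratios of pooled CPM are imprecise, at 338 in ectoderm (exact 95% interval 132 to 1243), 172 in endoderm (66.7 to 633) and 91.5 in mesoderm (35.1 to 340). ZNF436 rose as well, by 3.15, 3.10 and 1.90 on the log2 scale. ZNF436-AS1 had 1 assembled transcript in the hPSC, endoderm and mesoderm tables and 5 in that of ectoderm.

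TPT1-AS1 and WARS2-AS1 rose on chromatin in all 3 lineages. TPT1 fell in each, and WARS2 was called, and lower, in endoderm only. TPT1-AS1 was at 4.29, 5.0 and 8.14 CPM on hPSC chromatin and 163, 147 and 167 on that of ectoderm. Endoderm chromatin had 65.3, 44.9 and 70 CPM and mesoderm chromatin 119, 139 and 80.3 (log2 changes in the order ectoderm, endoderm and mesoderm 4.75, 3.50 and 4.30). TPT1 changed by -1.0, -2.05 and -1.22. The hPSC table held 2 assembled transcripts of TPT1-AS1, with 0 listed in Ensembl, against 17 in ectoderm, 2 in endoderm and 20 in mesoderm. WARS2-AS1, beside the gene of the mitochondrial tryptophan transfer RNA ligase, was at 1.86, 2.94 and 3.16 CPM on hPSC chromatin and at 47.9, 52.3 and 46.1 on that of ectoderm. It had 38.5, 29.4 and 44.5 CPM on endoderm and 41.3, 54 and 38.3 on mesoderm chromatin, with 1 assembled transcript in hPSC against 6, 3 and 5 in the lineages. Its changes were 4.18, 3.95 and 4.10, beside log2 differences of -0.36, -0.89 and -0.31 for WARS2. The fit over transcripts listed in all 4 tables gave no value for either gene, so the part of the assemblies in these changes was not tested.

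Other antisense genes also changed from hPSC. NNT-AS1, beside the gene of the mitochondrial transhydrogenase, had 0.121, 0.516 and 0.216 CPM in hPSC cytoplasm, 10.8, 7.53 and 9.85 in ectoderm and 11.9, 8.58 and 9.78 in mesoderm (log2 changes 4.87 and 5.03), and over the transcript found in all 4 tables the NNT-AS1 changes were 5.16 and 5.13. The hPSC cytoplasm libraries held only 11 NNT-AS1 counts in all, so the size of these changes is imprecise. In endoderm NNT-AS1 was at 0.779, 0.816 and 0.833 CPM. ELOA-AS1 had 50.2, 34 and 47.2 CPM on ectoderm chromatin and 0.256, 0.294 and 0.553 on hPSC chromatin, a ratio of pooled CPM of 122.6 (exact 95% interval 74.1 to 219.6), where ELOA, an elongation factor gene, differed by 0.22 and was not called. KIF9-AS1 had 1.03, 0.882 and 1.66 CPM on hPSC chromatin and rose in all 3 lineages (4.33, 3.77 and 4.02). TTC28-AS1 and TTC28 parted in mesoderm cytoplasm, at 1.07 and -5.11.

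Falls from hPSC were led in ectoderm by B3GALT5-AS1, which is nested in the gene of a glycosyltransferase. It had 43.1, 40.4 and 42.1 CPM in hPSC cytoplasm and 1.76, 2.31 and 1.52 in ectoderm (log2 change -4.53, SE 0.24, edgeR adjusted p 4.2e-10), and it fell in endoderm and mesoderm too (-1.75 and -1.67). B3GALT5 was at 35.4, 42.3 and 48.5 CPM in hPSC cytoplasm and 0.562, 0.668 and 0.599 in ectoderm. VPS9D1-AS1 fell in ectoderm cytoplasm, from 21.1, 24.9 and 26.3 to 1.76, 2.73 and 1.42 CPM (-3.65), where VPS9D1 differed by -0.52 and was not called. PXN-AS1, beside the gene of the focal adhesion protein paxillin, fell in mesoderm cytoplasm from 8.0, 6.78 and 6.41 to 0.593, 0.414 and 0.606 CPM (log2 change -3.69, SE 0.29, edgeR adjusted p 4.7e-08). PXN rose there, from 118, 144 and 157 to 362, 307 and 319 CPM (1.25), and 38.6% of the exon bases of PXN-AS1 lie on exons of the other strand.

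PRKCQ-AS1 fell together with PRKCQ, a protein kinase C gene, on chromatin, with log2 changes of -2.66, -2.63 and -1.71 beside -2.06, -1.50 and -0.97. These genes lie apart with facing starts and share no exon base. GABPB1-AS1 fell in endoderm cytoplasm to 5.62, 10.1 and 5.96 CPM (-3.62). Over the transcripts found in all 4 tables its change was 0.63 and was not called, so the direction depends on which assembled transcripts are summed. TMEM220-AS1 fell on chromatin in all 3 lineages (-3.25, -3.08 and -3.03), from 4.04, 4.7 and 3.95 CPM in hPSC. The ectoderm, endoderm and mesoderm chromatin libraries held only 17, 14 and 10 TMEM220-AS1 counts in all, so these changes are imprecise. PSMG3-AS1 fell in ectoderm in cytoplasm (-3.95, with 17 counts in the ectoderm libraries) and on chromatin (-3.37). LOXL1-AS1 fell in endoderm in both fractions (-2.38 and -3.42), and STX18-AS1 did too (-2.44 and -3.05), with STX18 at -0.10 and -0.31, neither called. The endoderm chromatin libraries held 16 LOXL1-AS1 counts in all.

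**Figure D5:**
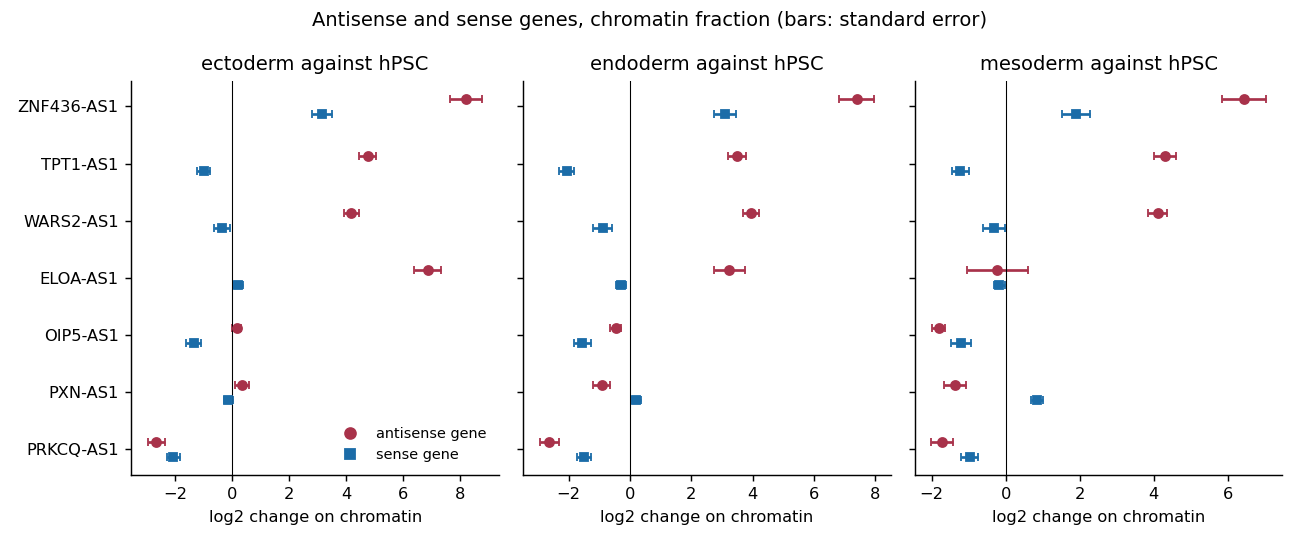
Log2 change from hPSC on chromatin for 7 antisense genes and their sense genes in ectoderm, endoderm and mesoderm; points are fitted changes and bars their SE. TPT1-AS1 and WARS2-AS1 lie above 0 and TPT1 below 0 in all 3 lineages, and PRKCQ-AS1 lies below 0 with PRKCQ.

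Over all pairs present in the 4 tables, cytoplasm changes from hPSC with both genes called went the same way in 23 pairs and opposite ways in 19 in ectoderm, 15 and 8 in endoderm, and 23 and 6 in mesoderm, of 64 pairs. On chromatin the counts were 13 and 14, 6 and 7, and 13 and 7, of 63 pairs. Pearson's r across pairs was 0.17, 0.30 and 0.29 in cytoplasm and 0.07, 0.12 and 0.22 on chromatin, and the 3 values of a fraction share the hPSC libraries. For the 9 pairs whose antisense gene has no exon base on the other strand, r was 0.48, 0.74 and 0.74 in cytoplasm and 0.46, 0.57 and 0.56 on chromatin. An r over 9 pairs can rest on 1 of them. With both genes called, 3 of these pairs went the same way and 3 opposite ways in ectoderm cytoplasm, 3 and 1 in endoderm, and 5 and 1 in mesoderm. On chromatin the counts were 3 and 1, 1 and 0, and 2 and 1.

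The cytoplasm to nucleus ratio itself was compared between each lineage and hPSC by an interaction term. Of 99 antisense genes, the ratio was higher in 23 and lower in 9 in ectoderm (beside 27.4% and 24.5% of all genes), 6 and 19 in endoderm (beside 19.6% and 18.3%), and 15 and 3 in mesoderm (beside 18.8% and 6.89%). With library totals the endoderm split became 18 higher and 5 lower and the mesoderm split 5 and 5, as the median of all genes moved by 0.51 and -0.34. Among the 17 without an exon base on the other strand, 1 was higher and 2 lower, 1 and 1, and 4 and 0. Control genes moved with these ratios as given above, and their part was not tested. Without the nucleus library that stood apart, ectoderm had 20 higher and 5 lower, and endoderm 4 higher and 17 lower.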

How the data were processed

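The authors deposited counts per assembled transcript and library, and TPM, for the assembly of each cell type. The submitters' processing notes name STAR, RSEM and hg38, so counts may be rounded estimates; versions, filters and strand settings are not given in the sources used here. The kit was NEBNext Ultra, per the labels. Columns coded "Nei" were read as nucleus, and 1 ectoderm column that matched no sample was not used. Transcripts were summed per Ensembl gene, and rows without one (0.277% to 9.60% of counts) were left out. CPM scales the deposited count to the remaining total. Tests were edgeR 4.0.16 quasi-likelihood fits in R 4.3.3 on all genes, with TMM, filterByExpr at a minimum count of 10 and Benjamini-Hochberg adjustment. Each comparison used 3 libraries a group. Nothing states that replicates are separate cultures, so p-values measure the spread between these libraries. Over 45 replicate pairs the chi-squared statistic was at least 4.06 times its degrees of freedom, so none was counted as a library deposited again. Named genes were, per comparison, up to 4 rises and 4 falls (3 for ratios) by fitted change among called genes of at least 2 CPM with groups that do not overlap; the 5 highest by the authors' TPM per cell type; 2 lists; and their sense genes. A gene that the rule names is not reported here. The members and lists were chosen with earlier results of these data known. The fits were tested on simulated data. Alternatives were library totals, DESeq2 1.42.0, no filter, a 2-fold minimum, log2(deposited TPM + 1) with limma 3.58.1, the ectoderm libraries of the deposited combined assembly, transcripts found in all 4 tables, the replicate number as a block, and leaving out each library. Start windows and the microRNA are RefSeq's, on GRCh38.p14, and the OIP5-AS1 site is from a GENCODE 29 transcript.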

Additional observations from a re-analysis of the deposited data

Results flagged for a closer look

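Of the antisense genes whose cytoplasm to nucleus ratio differed between a lineage and hPSC, up to 3 in each direction and lineage are given, each listed because its interaction term in the edgeR fit was called. In ectoderm the ratio rose by 2.62 on the log2 scale for CCDC18-AS1 (own change 1.05, hPSC -1.45), by 2.45 for GABPB1-AS1 (0.55, hPSC -1.77) and by 2.45 for LMNTD2-AS1 (0.14, hPSC -2.15). The ectoderm difference was -1.24 for ZNF561-AS1, -1.18 for CLN8-AS1 and -0.97 for BSG-AS1. The BSG-AS1 call was lost without hPSC nucleus replicate 2 or 3, hPSC cytoplasm replicate 1, ectoderm nucleus replicate 2 or ectoderm cytoplasm replicate 1 or 2, at edgeR adjusted p up to 0.14. Ectoderm nuclear RNAs were higher in the libraries labelled cytoplasm, MALAT1 by 3.09, and the part of this in the differences was not tested.

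In endoderm the ratio rose by 2.20 for OTUD6B-AS1 (3.75, hPSC 1.63), 1.62 for OIP5-AS1 (1.45, hPSC -0.11) and 1.61 for ZEB1-AS1 (1.74, hPSC 0.19). The differences on the lower side were -3.14 for LMNTD2-AS1 (-5.37, hPSC -2.15), -2.43 for SLC9A3-AS1 (-4.04, hPSC -1.52) and -1.87 for TTC28-AS1, whose own endoderm difference of -1.14 was not called. The ZEB1-AS1 call was lost without hPSC nucleus replicate 2, hPSC cytoplasm replicate 2 or endoderm cytoplasm replicate 1 or 2 (edgeR adjusted p up to 0.068), and that of TTC28-AS1 with library totals (edgeR adjusted p 0.063). In mesoderm the differences were 1.85 for FGF14-AS2, 1.83 for HERPUD2-AS1 and 1.71 for FBXL19-AS1, and -1.59 for WARS2-AS1, -1.56 for ZNF433-AS1 and -1.04 for ZNF561-AS1. Library totals ended the FBXL19-AS1 call (edgeR adjusted p 0.058) and leaving out hPSC cytoplasm replicate 1 that of WARS2-AS1 (edgeR adjusted p 0.061). The ZNF433-AS1 call was lost without hPSC nucleus replicate 1 or 3, hPSC cytoplasm replicate 1, mesoderm nucleus replicate 1 or 3 or mesoderm cytoplasm replicate 2 (edgeR adjusted p up to 0.070). Mitochondrial RNA, 5.91% to 7.57% of mesoderm cytoplasm counts and 0.441% to 0.621% of those of hPSC cytoplasm, moved with the cell type as well, and its part was not tested.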

How the results depend on the processing

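Of 1336 values of named genes recomputed under alternatives, 1290 kept their direction and call, 43 kept the direction but not the call, and 3 turned. JAKMIP2-AS1 on hPSC chromatin was at 0.25 with the authors' TPM, and over transcripts found in all 4 tables (an alternative chosen after seeing the data) NUTM2A-AS1 was at -0.067 and GABPB1-AS1 at 0.63 in endoderm cytoplasm against hPSC. Counts of called antisense genes were within 1.5 times in 109 of 114 cases with a library left out and 81 of 95 other cases. With the authors' TPM, ectoderm cytoplasm against nucleus gave 57 and chromatin against nucleoplasm 133 in hPSC and 134 in ectoderm, and the pairs with the antisense change above were 103 and 108 of 192 in ectoderm. A 2-fold minimum left 39 in ectoderm cytoplasm against nucleus, 19 and 42 on hPSC and ectoderm chromatin, and 37 in mesoderm cytoplasm against hPSC. Fewer genes are tested over shared transcripts, with 24, 16 and 17 called in cytoplasm and 20, 15 and 12 on chromatin in ectoderm, endoderm and mesoderm. Library totals gave 10 for the mesoderm ratio. Leaving out 1 library gave 30 to 44 on hPSC chromatin (31 and 30 without nucleoplasm replicates 1 and 3), 53 to 72 on ectoderm chromatin (54 and 53 without chromatin replicates 1 and 3) and 14 to 27 for the endoderm ratio (14 without cytoplasm replicate 2). The cause was not tested for these. Same-numbered replicates did not deviate together in every pair, so the numbers were not taken to pair the samples; for cytoplasm against nucleus the replicate block gave 95 called genes (hPSC), 81 (ectoderm), 82 (endoderm) and 121 (mesoderm), and 16 of 16 counts were within 1.5 times. With at most 3 libraries a group and library totals from 4990408, genes at a few counts have the least precise values.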
